A study of Homo sapiens with 9 samples.

Results

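PANC1 cells, an established human pancreatic ductal adenocarcinoma line, were transfected with a plasmid for flag-tagged NUSAP1 and set against untreated PANC1 cells. NUSAP1 (nucleolar and spindle-associated protein 1) binds microtubules of the spindle in mitosis. The comparison used 6 of the 9 libraries of the series, 3 with the plasmid (labelled flag-Nusap1, genotype Nusap1 overexpression) and 3 untreated (labelled Control, genotype WT). The other 3 libraries, from cells transfected with siRNA against NUSAP1, entered the same model and served as a second reference. All genes with an FPKM (fragments per kilobase of transcript, corrected for library size) of at least 1 in at least 3 of the 9 libraries were taken, which left 12544 of 60612 genes once NUSAP1 itself was set aside. The labels list no cells given an empty plasmid, so the effect of transfection and that of NUSAP1 cannot be told apart, and they do not say whether the 3 libraries of a group came from separate cultures, so that the p-values speak of the spread among these libraries alone. The plasmid's promoter, its dose and the hours after transfection are not stated in the labels.

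Libraries held 57115172 to 73386227 counts. NUSAP1 had 13325, 13792 and 12910 FPKM in the plasmid libraries, against 30.9, 34.0 and 42.1 FPKM in the control libraries. Its transcripts, those of the plasmid included, took 5.627% to 5.998% of all counts with the plasmid and 0.0132% to 0.0180% in control. Mitochondrially encoded transcripts took 6.82% to 8.11% of counts with the plasmid and 10.1% to 14.0% in control. Of 6 tested markers of ductal cells and PANC1, SOX9, KRT19, VIM and KRT8 were not called and KRT18 and CD44 were higher, while none of 12 acinar and islet markers was tested and their sum was 0.0380 to 0.257 FPKM with the plasmid and 0.00100 to 0.0880 FPKM in control. Transcripts of 20 hepatocyte markers summed to 22.8, 0.910 and 27.0 FPKM in the plasmid libraries, 0.432 to 0.461 FPKM in the siRNA libraries and 1.18, 28.6 and 33.4 FPKM in the control libraries. With the 4 libraries above 20 FPKM (plasmid 1 and 3, control 2 and 3, called hepatocyte-positive below) left out, 1 plasmid and 1 control library remained, and 2418 genes were called changed (1163 higher, 1255 lower) in place of 6701. Of the 6701 genes, 6686 had the same direction without these libraries and 2270 were called. Of 280 called genes named below, 65 were not called without them.

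Cells that meet foreign nucleic acid or other stress draw on a few well-studied circuits. Sensors of nucleic acid in the cytosol switch on type I and type III interferon genes, and the secreted interferons act through receptors, JAK kinases and STAT and IRF transcription factors on antiviral effector genes. NF-kappaB and MAP kinase signalling run beside them and switch on cytokines and the early response genes, whose products include the inhibitors of both pathways. These are background statements and were not tested as causes here.

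Genes counted as changed where edgeR's quasi-likelihood test gave a p below 0.05 after Benjamini-Hochberg adjustment. By this rule 3437 genes (27.4%) were higher with the plasmid and 3264 genes (26%) were lower, and the median log2 fold change of all genes was 0.00. On TPM values rescaled from the FPKM, limma called 3949 genes higher and 2244 lower, and on log2(FPKM + 1) it called 3017 higher and 3793 lower. List counts are given on TPM as well where 8 or more calls in a direction moved by over 1.5 times. A test against a 1.5-fold change called 1417 genes (11.3%) higher and 1100 genes (8.77%) lower. The FPKM values of the plasmid and control groups did not overlap for 7875 genes (62.8%). Shares of a gene group below are to be read against these shares. Genes named from a list include those with its smallest adjusted p values. That their groups were apart follows from that choice and is no further result. In bulk RNA, fewer cells that carry a transcript and less of it per cell cannot be told apart. A gene that passed the filter only through its plasmid libraries had to be higher there, so the counts of low-expressed groups describe the tested members and not the whole group. The loci of IFIT3, HLA-B, DDIT3, FADS2, SQSTM1, BRIX1, EIF4A2, NR1D1 and DBP each overlap another tested protein-coding gene, and reads of such pairs may be shared, since no source used here says if counting used strand.

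**Figure D1:**
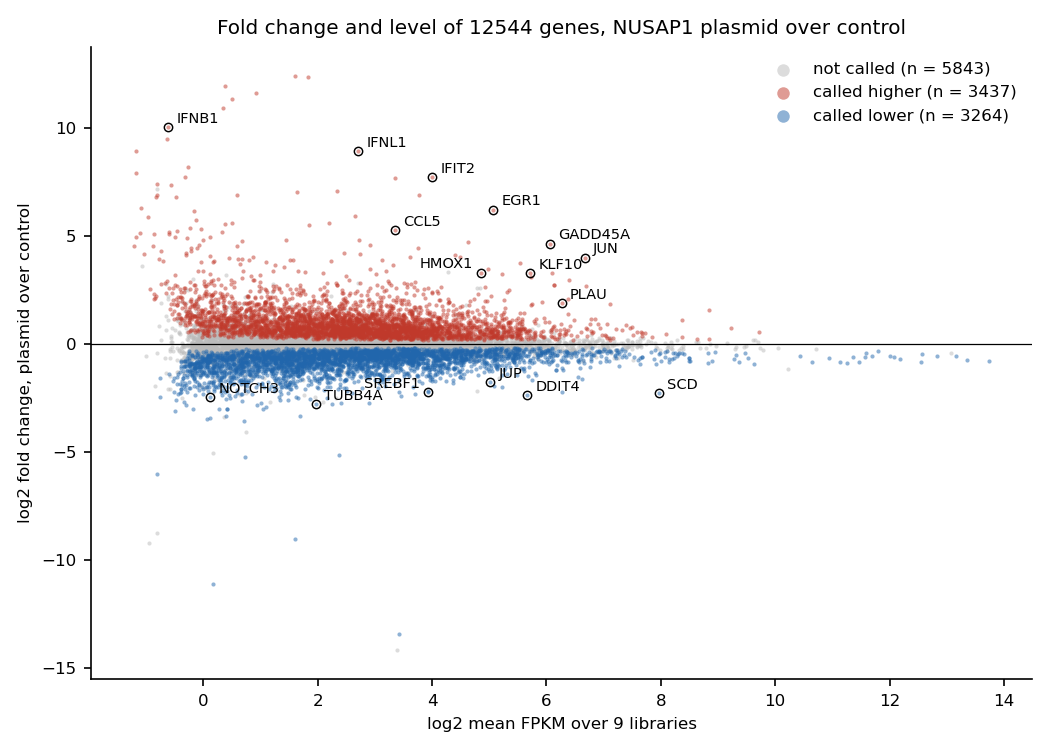
Log2 fold change of each gene, plasmid over control (vertical axis), against the log2 of its mean FPKM over 9 libraries (horizontal axis). Each point is 1 of 12544 genes, red where called higher (3437), blue where called lower (3264) and grey where not called, with 16 genes circled. More points lie far above 0 than far below it: 119 genes had increases and 23 had decreases of more than 8-fold.

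Most tested genes of the interferon circuit were higher, from the ligands to the effectors, while the genes of its receptors were not called. None of the ligand genes IFNB1, IFNL2 and IFNL3 had a count in any control library. IFNB1, the type I interferon made by most cell types, had 142, 135 and 97 counts in the plasmid libraries, which against a floor of 3 counts over the control group is at least 132.3-fold higher. IFNL2 had 656, 545 and 753 counts (at least 691.4-fold higher) and IFNL3 had 694, 555 and 622 counts (at least 662.1-fold higher) in the plasmid libraries. IFNL1 had 22.2, 17.3 and 19.3 FPKM in the plasmid libraries, against 0.0001, 0.0443 and 0.0716 FPKM in the control libraries, where 0.0001 stands for 0 in the deposited table. These 4 of 8 listed ligand genes passed the filter, and in all 4 the plasmid libraries were the high ones. Without the hepatocyte-positive libraries 3 of the 4 were called, and IFNB1 was not. IFNL2 and IFNL3 are near-identical copies whose reads may be shared.

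Short stretches of the promoters are shown because they hold the sequence that interferon-regulatory factors read, the interferon-stimulated response element (ISRE), or the NF-kappaB site of the IFNB1 enhancer. The sequences are RefSeq's (GRCh38.p14), 5′ to 3′ along the gene's strand, and capitals mark bases that match GAAANNGAAA (ISRE) on either strand or, for IFNB1, GGGANNTTCC (NF-kappaB), where N is any base.
IFNL1 (chr19:39296168-39296233, plus strand): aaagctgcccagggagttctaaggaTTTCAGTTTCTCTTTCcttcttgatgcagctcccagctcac
IFNL2 (chr19:39268195-39268254, plus strand): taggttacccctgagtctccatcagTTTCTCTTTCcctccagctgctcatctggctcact
IFNB1 (chr9:21077974-21078033, minus strand): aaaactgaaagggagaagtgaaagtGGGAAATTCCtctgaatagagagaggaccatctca
IFI44 (chr1:78649746-78649805, plus strand): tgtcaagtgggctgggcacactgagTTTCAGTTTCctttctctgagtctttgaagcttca
IFIT1 (chr10:89392482-89392554, plus strand): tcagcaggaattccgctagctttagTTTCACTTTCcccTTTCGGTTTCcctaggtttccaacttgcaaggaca
ISG15 (chr1:1013359-1013424, plus strand): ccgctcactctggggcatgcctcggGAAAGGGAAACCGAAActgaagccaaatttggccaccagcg
MX1 (chr21:41420544-41420603, plus strand): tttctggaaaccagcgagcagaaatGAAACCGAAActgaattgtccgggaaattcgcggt
The window searched ran from 250 bases before to 50 bases after each gene start, and 8966 tested genes had one by symbol. An ISRE match was present in 18 of 23 promoters of interferon-induced effectors (78.3%) and in 3 of 4 ligand promoters, against 2.58% of all promoters. Both lists hold genes known from interferon biology, so these shares describe the lists and not the response to the plasmid. A match is a description of letters and not of binding.

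Most sensors of nucleic acid were higher too. Of 18 listed sensors and adaptors, 11 were tested, of which 9 were higher and 2 lower (4 and 1 without the hepatocyte-positive libraries). IFIH1 (MDA5, a sensor of long double-stranded RNA) had 7.01, 7.54 and 7.83 FPKM in the plasmid libraries, against 0.551, 0.583 and 0.476 FPKM in the control libraries (log2 fold change 3.87 ± 0.13, SE; edgeR adjusted p = 2.43e-07). DDX58 (RIG-I, a sensor of RNA with a free triphosphate end) had 33.3, 44.4 and 41.5 FPKM in the plasmid libraries, against 5.94, 7.62 and 7.08 FPKM in the control libraries (log2 fold change 2.61 ± 0.17, SE; edgeR adjusted p = 7.35e-06). All plasmid libraries lay above all control libraries for both. TICAM1 (1.78), the adaptor of the endosomal RNA receptor TLR3, and EIF2AK2 (1.14), TBK1 (1.09) and CGAS (0.67) rose less, with log2 fold changes in brackets. EIF2AK2 is the RNA-activated kinase of eIF2, TBK1 phosphorylates IRF3, and CGAS senses DNA. The adaptors MAVS (-0.64), through which both RNA sensors signal, and TRAF3 (-0.60) fell.

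Of 20 listed receptors, kinases and transcription factors of interferon signalling, 17 were tested, of which 8 were higher and 2 lower (5 and 0 without the hepatocyte-positive libraries). IRF1, an early interferon-regulatory factor, had 5.03, 5.23 and 5.42 FPKM in the plasmid libraries, against 0.872, 0.769 and 0.952 FPKM in the control libraries (log2 fold change 2.67 ± 0.14, SE; edgeR adjusted p = 2.17e-06). IRF7, which amplifies interferon transcription, had 9.997, 7.59 and 8.77 FPKM in the plasmid libraries, against 2.23, 2.20 and 2.33 FPKM in the control libraries (log2 fold change 2.03 ± 0.13, SE; edgeR adjusted p = 6.53e-06). For both the lowest plasmid library exceeded the highest control library. The brakes USP18 (1.55) and SOCS3 (1.13) rose too. IRF3 (-0.62) fell, and the receptor subunits did not pass the test, as in IFNAR1 (log2 fold change -0.38, edgeR adjusted p = 0.0778), IFNAR2 (log2 fold change -0.77, edgeR adjusted p = 0.0643) and IL10RB (log2 fold change -0.61, edgeR adjusted p = 0.227).

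Of 44 listed effectors, 27 were tested, of which 21 were higher and 2 lower, with a median log2 fold change of 1.97. Members near 0 in control may have passed the filter only through their plasmid libraries, and such genes had to be higher. Of all 817 genes with a mean control FPKM under 1, 56.4% were higher and 2.69% lower. IFIT3, which binds the RNA-binding IFIT1, had 16.7, 20.9 and 16.7 FPKM in the plasmid libraries, against 0.193, 0.394 and 0.359 FPKM in the control libraries (log2 fold change 5.91 ± 0.30, SE; edgeR adjusted p = 2.22e-06). OASL, a relative of the 2′-5′ oligoadenylate synthetases, had 10.3, 8.21 and 9.29 FPKM in the plasmid libraries, against 0.0001, 0.128 and 0.102 FPKM in the control libraries (log2 fold change 7.02 ± 0.84, SE; edgeR adjusted p = 0.000177). ISG15, a ubiquitin-like modifier, had 203, 167 and 203 FPKM in the plasmid libraries, against 23.4, 23.1 and 31.4 FPKM in the control libraries (log2 fold change 2.95 ± 0.16, SE; edgeR adjusted p = 3.08e-06). The groups were apart in each case, from genes near 0 in control to one already well expressed. RSAD2 (6.79), IFI44 (6.30), MX1 (4.04), HERC5 (3.33), IFI6 (2.45), TRIM21 (2.04) and OAS3 (1.74) rose as well. The effectors lower with the plasmid were IFITM2 (-1.11) and UBE2L6 (-0.84), and IFITM3, a membrane protein that blocks viral entry, stayed uncalled at 156, 123 and 140.1 FPKM in the plasmid libraries, against 145, 115 and 158 FPKM in the control libraries. The loci of IFIT1 and IFIT2 overlap LIPA in the annotation.

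Of 17 listed genes of MHC class I presentation, 14 were tested, of which 6 were higher and 3 lower. HLA-B, a class I heavy chain, had 32.7, 31.8 and 43.9 FPKM in the plasmid libraries, against 6.71, 7.59 and 8.14 FPKM in the control libraries (log2 fold change 2.35 ± 0.14, SE; edgeR adjusted p = 4.15e-06), the largest log2 fold change of the list. HLA-E (0.93) and HLA-C (0.57) and the peptide transporter subunits TAP1 (0.90) and TAP2 (0.55) rose, and the loading factors TAPBP (-1.08) and CALR (-0.68) fell. B2M, the shared light chain, had 60.7, 5.66 and 5.83 FPKM in the plasmid libraries, against 38.9, 38.2 and 43.9 FPKM in the control libraries, so that plasmid 1 was above and plasmid 2 and 3 were below every control library. The difference was not called (edgeR adjusted p = 0.532). HLA genes are close relatives that may share reads.

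NF-kappaB genes and its targets were also higher. Of 20 listed subunits, kinases and inhibitors, 18 were tested, of which 16 were higher and none was lower, and the median log2 fold change was 1.88. NFKB2, precursor of the p52 subunit, had 33.6, 32.1 and 33.6 FPKM in the plasmid libraries, against 6.08, 6.96 and 7.15 FPKM in the control libraries (log2 fold change 2.38 ± 0.07, SE; edgeR adjusted p = 1.87e-07). RELB, the partner of p52, had 22.4, 17.8 and 20.2 FPKM in the plasmid libraries, against 2.68, 1.94 and 2.15 FPKM in the control libraries (log2 fold change 3.23 ± 0.25, SE; edgeR adjusted p = 1.49e-05). TNFAIP3 (A20, a ubiquitin-editing inhibitor of the pathway) had 13.7, 15.4 and 14.7 FPKM in the plasmid libraries, against 0.997, 0.740 and 0.738 FPKM in the control libraries (log2 fold change 4.20 ± 0.19, SE; edgeR adjusted p = 1.35e-06). Activators and inhibitors rose together, with the groups apart in all 3 genes. RELA (1.79) and NFKB1 (1.21), the inhibitors NFKBIA (2.12), NFKBIE (1.94), NFKBIB (1.93) and CYLD (2.23) and the ubiquitin ligases BIRC3 (3.63) and BIRC2 (1.77) rose, and BCL3 (log2 fold change 0.14, edgeR adjusted p = 0.493) and IKBKB (log2 fold change 0.20, edgeR adjusted p = 0.268) did not pass the test. The promoters of TNFAIP3 and NFKBIA are shown for their NF-kappaB match, with GGGANNTTCC on either strand in capitals. Of 15 promoters of this list, 3 held the site, against 1.58% of all promoters, and that of BIRC3 did not.
TNFAIP3 (chr6:137867167-137867226, plus strand): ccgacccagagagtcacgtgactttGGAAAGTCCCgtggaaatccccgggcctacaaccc
NFKBIA (chr14:35404796-35404855, minus strand): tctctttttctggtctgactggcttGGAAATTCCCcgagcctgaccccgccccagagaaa

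Of 34 listed cytokines and chemokines, 12 were tested, of which 10 were higher and 1 lower. Members near 0 in control, such as CXCL8, may have passed the filter only by being higher with the plasmid. CCL5, a chemokine for T cells, had 28.7, 27.6 and 31.5 FPKM in the plasmid libraries, against 0.637, 1.03 and 0.740 FPKM in the control libraries (log2 fold change 5.26 ± 0.19, SE; edgeR adjusted p = 3.78e-07). IL18, an interleukin-1 family cytokine, had 18.6, 21.6 and 16.4 FPKM in the plasmid libraries, against 3.87, 4.03 and 3.12 FPKM in the control libraries (log2 fold change 2.44 ± 0.15, SE; edgeR adjusted p = 4.81e-06). CXCL8, the neutrophil chemokine interleukin-8, had 3.71, 4.29 and 4.54 FPKM in the plasmid libraries, against 0.0001, 0.248 and 0.321 FPKM in the control libraries (log2 fold change 4.53 ± 0.96, SE; edgeR adjusted p = 0.00398). The 3 genes had no overlap between groups. CXCL1 (2.94), IL11 (2.43), CCL2 (1.86) and LIF (1.08) rose, and CXCL16, a chemokine anchored in the membrane, fell by 1.05 on the log2 scale. Of 12 leukocyte markers 2 were tested, and the 12 summed to 29.7 to 53.03 FPKM with the plasmid and 14.0 to 17.3 FPKM in control. CD68, a lysosomal protein of macrophages whose locus overlaps another gene of the table, was higher by 1.71 on the log2 scale and LYZ was not called. The part of leukocyte transcripts in these results was not tested.

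**Figure D2:**
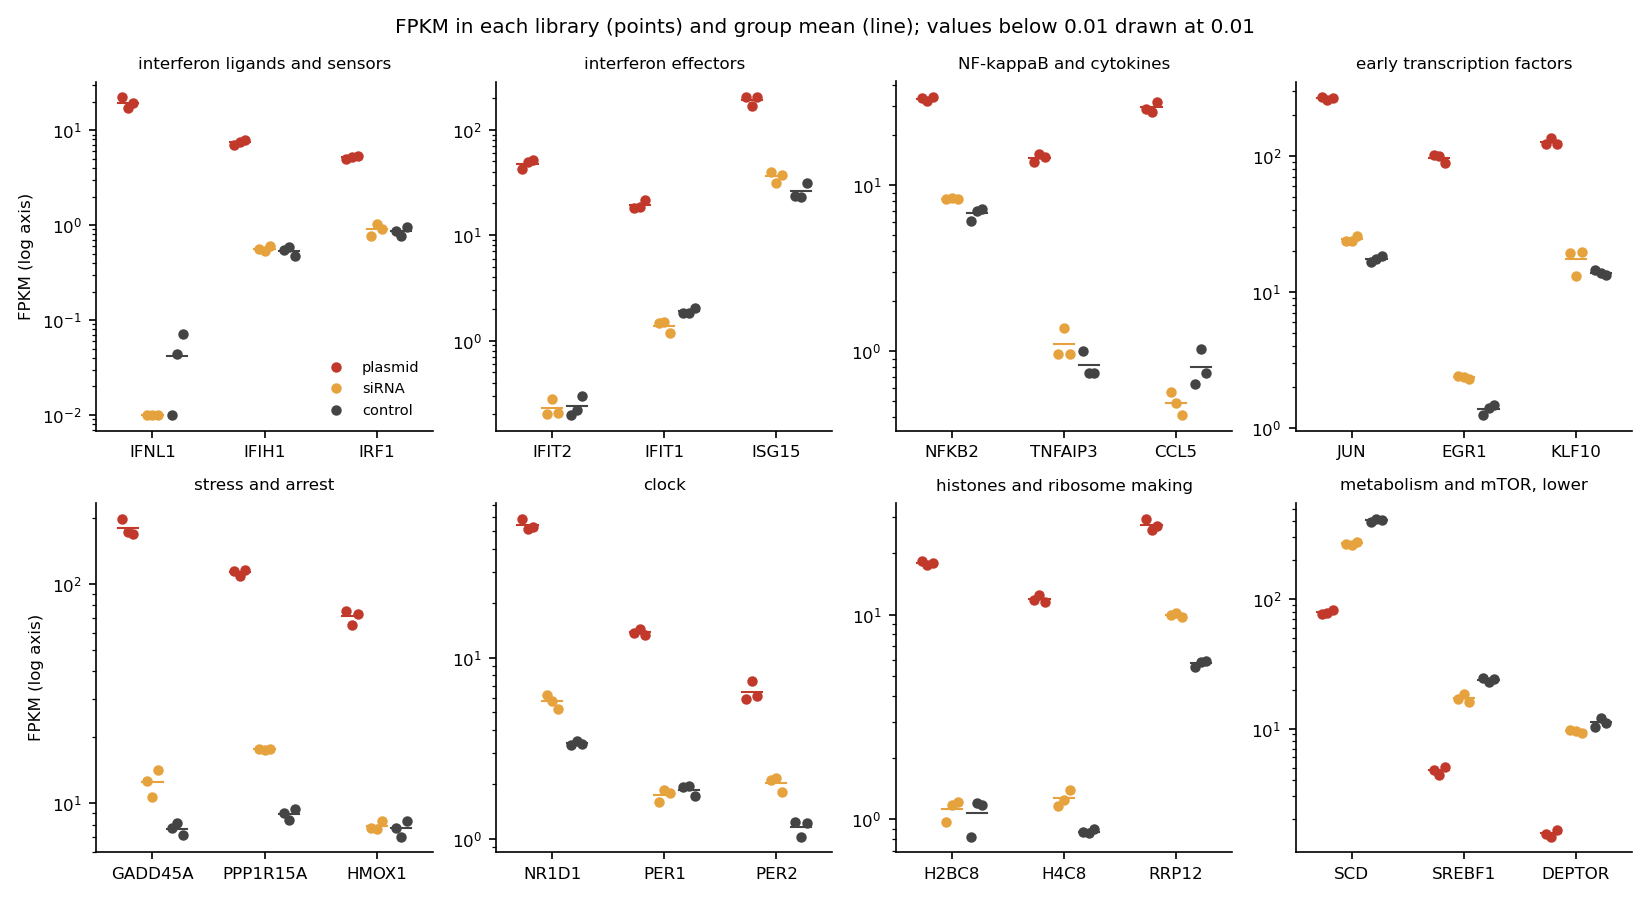
FPKM in each library (points, log axis) and group mean (line) for 24 genes in 8 panels, with plasmid, siRNA and control libraries from left to right. In the first 7 panels the plasmid points lie above both other groups, as in RRP12 (25.8 to 29.4 FPKM with the plasmid, 5.58 to 5.92 in control) and IFIT2 (42.0 to 51.1 with the plasmid, 0.197 to 0.297 in control), and in the last panel they lie below them.

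The early response genes, transcription factors that cells switch on within minutes of a stimulus, were higher in most families. Of 22 listed AP-1 and ATF factors, 20 were tested, of which 14 were higher and 1 lower (9 and 0 without the hepatocyte-positive libraries). JUN had 267, 256 and 265 FPKM in the plasmid libraries, against 16.7, 17.4 and 18.4 FPKM in the control libraries (log2 fold change 3.99 ± 0.09, SE; edgeR adjusted p = 4.65e-08). MAFF, a small MAF protein, had 18.3, 18.4 and 18.2 FPKM in the plasmid libraries, against 0.776, 0.620 and 0.700 FPKM in the control libraries (log2 fold change 4.78 ± 0.11, SE; edgeR adjusted p = 6.58e-08). FOSL1, a FOS relative abundant in many carcinomas, had 168, 153 and 146 FPKM in the plasmid libraries, against 22.8, 25.4 and 26.3 FPKM in the control libraries (log2 fold change 2.73 ± 0.08, SE; edgeR adjusted p = 1.85e-07). These genes had the smallest adjusted p values of the list, so differences large next to the spread follow from that choice. ATF3 (4.57), FOS (4.001), FOSB (3.35), FOSL2 (2.81), JUNB (2.02) and CREB5 (5.57) rose, ATF7 (-0.55) fell, and JUND (log2 fold change -0.40, edgeR adjusted p = 0.536) did not pass the test.

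Of 29 listed EGR, IER, NR4A, ID and KLF factors, 25 were tested, of which 17 were higher and 2 lower. Their median log2 fold change was 0.98 (0.89 without the hepatocyte-positive libraries), and no NR4A gene was among those called. EGR1, a zinc finger factor that answers growth factor signals, had 101, 100.1 and 88.8 FPKM in the plasmid libraries, against 1.25, 1.41 and 1.48 FPKM in the control libraries (log2 fold change 6.21 ± 0.10, SE; edgeR adjusted p = 1.31e-08). KLF10, an early gene of TGF-beta signalling, had 122, 134 and 122 FPKM in the plasmid libraries, against 14.4, 13.7 and 13.2 FPKM in the control libraries (log2 fold change 3.27 ± 0.18, SE; edgeR adjusted p = 2.88e-06). CSRNP1 had 37.6, 34.0 and 36.6 FPKM in the plasmid libraries, against 1.896, 1.91 and 1.48 FPKM in the control libraries (log2 fold change 4.43 ± 0.14, SE; edgeR adjusted p = 1.87e-07). The 3 plasmid libraries stood apart from the control libraries in each. EGR2 (5.10), EGR4 (6.16), KLF4 (3.26), KLF2 (2.09) and IER3 (1.04) rose and KLF13 (-0.38) and IER5L (-0.83) fell. KLF13 was not called on TPM. IER2 had 3.26, 88.4 and 94.4 FPKM in the plasmid libraries, against 26.5, 4.58 and 1.39 FPKM in the control libraries, with plasmid 1 inside the control range. MYC had 36.0, 30.3 and 4.41 FPKM in the plasmid libraries, against 13.1, 12.3 and 12.7 FPKM in the control libraries, with plasmid 3 below the controls. Neither was called. The EGR1 promoter is shown for its 2 matches in capitals to the CArG box, the site of serum response factor, whose gene SRF was itself higher by 0.90 on the log2 scale. A match was present in 2 of 21 promoters of this list (9.52%), against 0.993% of all promoters, and in neither that of EGR2 nor that of FOS.
EGR1 (chr5:138465349-138465430, plus strand): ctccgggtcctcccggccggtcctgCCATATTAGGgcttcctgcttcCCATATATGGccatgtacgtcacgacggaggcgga

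Most inhibitors of MAP kinase signalling were higher. Of 20 listed genes, 17 were tested, of which 14 were higher and none was lower, with a median log2 fold change of 1.75. DUSP5, a nuclear phosphatase of ERK, had 58.8, 56.7 and 59.6 FPKM in the plasmid libraries, against 3.14, 4.16 and 4.31 FPKM in the control libraries (log2 fold change 3.998 ± 0.13, SE; edgeR adjusted p = 2.44e-07). DUSP8, a phosphatase of JNK and p38, had 14.1, 11.8 and 11.9 FPKM in the plasmid libraries, against 0.315, 0.218 and 0.286 FPKM in the control libraries (log2 fold change 5.59 ± 0.18, SE; edgeR adjusted p = 2.43e-07). SPRY4, an inhibitor of receptor-to-RAS signalling, had 16.8, 18.3 and 16.9 FPKM in the plasmid libraries, against 0.418, 4.34 and 3.57 FPKM in the control libraries (log2 fold change 2.74 ± 0.65, SE; edgeR adjusted p = 0.00717). In each the plasmid libraries lay above every control library, and control 1 was far below the other controls for SPRY4. DUSP10 (3.86), DUSP16 (2.52), DUSP1 (1.99), DUSP6 (1.72), SPRY2 (2.15), SPRED1 (1.17) and SPRED2 (1.22) rose, and NF1 (log2 fold change 0.42, edgeR adjusted p = 0.281), SPRY1 (log2 fold change 0.31, edgeR adjusted p = 0.454) and RASA1 (log2 fold change 0.02, edgeR adjusted p = 0.935) did not pass the test. Among ligands of the EGF receptor, HBEGF (3.88), EREG (3.17) and AREG (2.76) rose with the receptor EGFR (1.02), while the other receptors ERBB2 (-0.90) and ERBB3 (-1.32) fell.

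Of 31 listed mRNA decay regulators, 30 were tested, of which 14 were higher and 2 lower (7 and 0 without the hepatocyte-positive libraries). NOCT, a rhythmic protein of the deadenylase fold whose locus overlaps ELF2, had 65.1, 68.0 and 67.1 FPKM in the plasmid libraries, against 2.64, 2.95 and 2.41 FPKM in the control libraries (log2 fold change 4.72 ± 0.13, SE; edgeR adjusted p = 1.29e-07). ZC3H12A (1.22) and ZC3H12C (1.56), endonucleases that cut cytokine mRNAs, the antiviral protein ZC3HAV1 (1.23) and the decapping subunit DCP1A (1.22) rose. ZFP36 (tristetraprolin), which binds AU-rich elements, had 122, 27.98 and 98.5 FPKM in the plasmid libraries, against 17.6, 60.5 and 65.0 FPKM in the control libraries and was not called (edgeR adjusted p = 0.34). In the 3′ UTRs of 10781 genes with GENCODE 29 annotation, at least 1 copy of TATTTAT, the core of such elements, was present in 39.6% of genes higher by more than 1.5-fold, in 21.3% of genes lower by more than 1.5-fold and in 30.7% of all. The 3′ UTRs differed in length too, with medians of 1094 bases in the higher and 866 in the lower class against 982 bases in all, and per kilobase there were 0.439 copies in the higher and 0.216 copies in the lower class against 0.322 in all.

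Of 26 listed growth arrest genes and p53 targets, 22 were tested, of which 11 were higher and 3 lower (7 and 3 without the hepatocyte-positive libraries). PPP1R15A (GADD34, which directs a phosphatase to eIF2) had 115, 109 and 116 FPKM in the plasmid libraries, against 8.998, 8.42 and 9.42 FPKM in the control libraries (log2 fold change 3.74 ± 0.08, SE; edgeR adjusted p = 4.65e-08). GADD45A, a stress-induced growth arrest protein, had 198, 173 and 169.9 FPKM in the plasmid libraries, against 7.68, 8.10 and 7.20 FPKM in the control libraries (log2 fold change 4.64 ± 0.15, SE; edgeR adjusted p = 2.43e-07). CDKN1A (p21), the inhibitor of cyclin-dependent kinases, had 27.5, 25.2 and 26.5 FPKM in the plasmid libraries, against 11.6, 11.8 and 12.9 FPKM in the control libraries (log2 fold change 1.20 ± 0.08, SE; edgeR adjusted p = 9.85e-06). All 3 were higher in every plasmid library. PLK2 (2.82), AEN (2.58), SERTAD1 (2.46) and SESN2 (2.03) rose, whereas the p53 targets FDXR (-1.60), TP53INP1 (-1.69) and DDB2 (-0.56) fell and MDM2 (log2 fold change 0.10, edgeR adjusted p = 0.735) and XPC (log2 fold change -0.08, edgeR adjusted p = 0.339) did not pass the test.

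Of 18 listed genes of the BCL2 family, 15 were tested, of which 4 were higher and 8 lower (3 and 2 without the hepatocyte-positive libraries, 5 and 5 on TPM). The guardians BCL2A1 and MCL1 and the killer PMAIP1 (NOXA) rose. BCL2A1 had 29.8, 32.5 and 28.8 FPKM in the plasmid libraries, against 1.60, 1.75 and 2.63 FPKM in the control libraries (log2 fold change 4.003 ± 0.20, SE; edgeR adjusted p = 1.95e-06). PMAIP1 had 22.99, 39.5 and 25.01 FPKM in the plasmid libraries, against 4.78, 5.33 and 4.68 FPKM in the control libraries (log2 fold change 2.65 ± 0.21, SE; edgeR adjusted p = 1.66e-05). The groups were apart in both genes, which have opposed roles. MCL1 (1.20) and BAK1 (0.82) rose less, and the BH3-only killers BMF (-1.72), BCL2L11 (-1.49), BBC3 (-0.68) and BAD (-0.53) fell. Of 23 listed death receptor and caspase genes, 16 were tested, of which 8 were higher and 1 lower (2 and 1 without the hepatocyte-positive libraries), with TNFRSF12A (1.42), TNFRSF10A (1.13), TNFRSF10B (0.62) and FADD (0.83) among those that rose and CASP6 (-1.14) lower.

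Targets of ATF4, the factor of the integrated stress response, moved both ways. Of 32 listed targets, 30 were tested, of which 11 were higher (36.7%) and 9 lower (30.0%), against 27.4% and 26% of all genes. Their median log2 fold change was 0.14 (0.03 without the hepatocyte-positive libraries). DDIT3 (CHOP) had 169, 132 and 176 FPKM in the plasmid libraries, against 18.0, 13.2 and 20.8 FPKM in the control libraries (log2 fold change 3.27 ± 0.23, SE; edgeR adjusted p = 9.85e-06). PSPH, an enzyme of serine synthesis, had 11.9, 9.66 and 11.7 FPKM in the plasmid libraries, against 27.4, 29.1 and 34.8 FPKM in the control libraries (log2 fold change -1.38 ± 0.11, SE; edgeR adjusted p = 1.8e-05). Both were apart from control, in opposite directions. SLC3A2 (1.37), SLC7A11 (1.67) and CEBPB (0.97) rose, the serine enzymes PHGDH (-1.13) and PSAT1 (-0.80) fell, and ASNS (log2 fold change 0.17, edgeR adjusted p = 0.239), TRIB3 (log2 fold change 0.20, edgeR adjusted p = 0.376) and CHAC1 (log2 fold change 0.19, edgeR adjusted p = 0.205) did not pass the test. Of 20 endoplasmic reticulum chaperones and sensors, 7 were higher and 7 lower (3 and 1 without the hepatocyte-positive libraries). HSPA5 (0.86) and DNAJB9 (1.22) and the stress sensor ERN1 (1.21) rose and CALR (-0.68), PDIA4 (-0.58), PDIA6 (-0.42) and CRELD2 (-0.63) fell. Of 20 genes listed as cytosolic heat shock proteins, 10 were higher and 4 lower. The list also holds HSPE1, whose protein is mitochondrial. The median log2 fold change of the list was 0.26 (0.17 without the hepatocyte-positive libraries). HSPB8 (2.84), DNAJB4 (1.58), BAG3 (0.99) and HSPH1 (0.81) rose, and HSPA8, the abundant constitutive HSP70, rose by 0.44 on the log2 scale. The 4 that fell were the inducible HSP70 genes HSPA1A (-0.23) and HSPA1B (-0.33), near-identical copies that may share reads, the small heat shock protein HSPB1 (-0.55) and HSPE1 (-0.85), a mitochondrial cochaperonin. None of the 4 was called on TPM. HSPA1A was not called without plasmid 2, plasmid 3, control 1 or control 3 (edgeR adjusted p up to 0.139), HSPE1 without plasmid 2 or control 1 (up to 0.0574) and HSPB1 without control 3 (0.0556).

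Of 26 listed targets of the antioxidant factor NRF2, 21 were tested, of which 5 were higher and 8 lower (4 and 3 without the hepatocyte-positive libraries). HMOX1 (heme oxygenase) had 75.4, 65.4 and 73.4 FPKM in the plasmid libraries, against 7.75, 7.06 and 8.30 FPKM in the control libraries (log2 fold change 3.29 ± 0.11, SE; edgeR adjusted p = 2.43e-07). PGD, an enzyme of the pentose phosphate pathway, had 17.9, 15.7 and 18.4 FPKM in the plasmid libraries, against 36.6, 32.9 and 44.0 FPKM in the control libraries (log2 fold change -1.05 ± 0.16, SE; edgeR adjusted p = 0.000772). The groups did not overlap in either gene. OSGIN1 (4.77) and SRXN1 (1.46) rose, and PRDX1 (-0.66) and TKT (-0.84) fell. Of the tested NRF2 targets 23.8% were higher and 38.1% lower, against 27.4% and 26% of all genes. PGD and TKT belong to the pentose phosphate pathway. Of 11 listed genes of that pathway, 10 were tested, of which 1 was higher and 7 lower (0 and 3 without the hepatocyte-positive libraries).

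Most called genes of lipid and sugar metabolism were lower. Of 26 listed fatty acid genes, 24 were tested, of which 1 was higher and 17 lower (1 and 6 without the hepatocyte-positive libraries), with a median log2 fold change of -0.67. SREBF1, the transcription factor of the pathway, had 4.79, 4.38 and 5.08 FPKM in the plasmid libraries, against 24.7, 22.8 and 24.0 FPKM in the control libraries (log2 fold change -2.25 ± 0.08, SE; edgeR adjusted p = 3.4e-07). Its locus overlaps RAI1. FASN (fatty acid synthase) had 27.5, 27.5 and 25.2 FPKM in the plasmid libraries, against 57.7, 65.1 and 60.6 FPKM in the control libraries (log2 fold change -1.11 ± 0.07, SE; edgeR adjusted p = 6.34e-06). FADS2, a desaturase, had 4.99, 4.72 and 4.61 FPKM in the plasmid libraries, against 21.8, 19.01 and 20.5 FPKM in the control libraries (log2 fold change -2.02 ± 0.13, SE; edgeR adjusted p = 5.57e-06). Every plasmid library was below every control library in these 3 genes. SCD (-2.27), ACLY (-0.70), ACACA (-0.67), INSIG1 (-1.28) and ELOVL6 (-0.80) fell, and the one gene that rose was LPIN1, a phosphatidic acid phosphatase, with 5.46, 5.65 and 5.55 FPKM in the plasmid libraries, against 3.00, 2.73 and 2.27 FPKM in the control libraries (log2 fold change 1.13 ± 0.11, SE; edgeR adjusted p = 6.76e-05).

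Of 29 listed cholesterol genes, 25 were tested, of which 2 were higher and 15 lower (2 and 8 without the hepatocyte-positive libraries). LSS, which closes the sterol rings, had 5.94, 5.73 and 6.43 FPKM in the plasmid libraries, against 17.4, 18.5 and 16.6 FPKM in the control libraries (log2 fold change -1.46 ± 0.07, SE; edgeR adjusted p = 1.5e-06). FDFT1 (squalene synthase) had 8.06, 8.05 and 8.41 FPKM in the plasmid libraries, against 19.5, 18.3 and 20.9 FPKM in the control libraries (log2 fold change -1.18 ± 0.14, SE; edgeR adjusted p = 0.000163). The groups were apart in both. TM7SF2 (-2.51), DHCR7 (-1.16), ACAT2 (-1.16), FDPS (-0.89) and MVD (-0.85) fell, and HMGCS1 (0.60) and NPC1 (0.82) rose.

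Of 30 listed glycolysis and lactate genes, 27 were tested, of which 3 were higher and 18 lower (1 and 12 without the hepatocyte-positive libraries). ALDOC, an aldolase, had 1.12, 1.16 and 0.997 FPKM in the plasmid libraries, against 7.49, 7.89 and 8.56 FPKM in the control libraries (log2 fold change -2.77 ± 0.12, SE; edgeR adjusted p = 1.29e-06). PFKL, a phosphofructokinase subunit, had 7.04, 6.09 and 7.32 FPKM in the plasmid libraries, against 16.4, 15.95 and 18.5 FPKM in the control libraries (log2 fold change -1.23 ± 0.09, SE; edgeR adjusted p = 1.4e-05). PDK2, a kinase that restrains pyruvate dehydrogenase, had 1.89, 1.54 and 1.59 FPKM in the plasmid libraries, against 5.96, 5.65 and 6.12 FPKM in the control libraries (log2 fold change -1.74 ± 0.11, SE; edgeR adjusted p = 5.3e-06). Plasmid libraries were the low ones in all 3. GAPDH (-0.82), PGK1 (-0.81), GPI (-0.79), LDHA (-0.86) and LDHB (-0.52) fell, while the hexokinase HK2 (0.48) and the muscle enolase ENO3 (1.21) rose, and the glucose transporter SLC2A1 (log2 fold change -0.05, edgeR adjusted p = 0.842) did not pass the test. Of 25 genes of the tricarboxylic acid cycle, 1 was higher and 12 lower (1 and 2 without the hepatocyte-positive libraries, 2 and 6 on TPM). IDH2 had 19.9, 16.9 and 17.6 FPKM in the plasmid libraries, against 51.4, 51.8 and 56.1 FPKM in the control libraries (log2 fold change -1.47 ± 0.09, SE; edgeR adjusted p = 4.15e-06). IDH1, the cytosolic form, had 6.38, 7.08 and 6.68 FPKM in the plasmid libraries, against 20.2, 18.4 and 20.1 FPKM in the control libraries (log2 fold change -1.46 ± 0.10, SE; edgeR adjusted p = 8.55e-06). The 2 isocitrate dehydrogenases had the largest decreases of the list, and the next was that of PDHB (-0.67), a pyruvate dehydrogenase subunit. All 13 transcripts of the mitochondrial genome had log2 fold changes below 0, between -0.87 (MT-ND3) and -0.42 (MT-ND1), and 12 were called lower.

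The kinase mTOR couples growth to nutrients. Of 31 genes of mTOR and its regulators, 10 were higher (32.3%) and 7 lower (22.6%), against 27.4% and 26% of all genes. The median log2 fold change of the list was 0.02 (-0.08 without the hepatocyte-positive libraries). DEPTOR, a bound inhibitor of mTOR, had 1.53, 1.47 and 1.66 FPKM in the plasmid libraries, against 10.4, 12.1 and 11.1 FPKM in the control libraries (log2 fold change -2.77 ± 0.09, SE; edgeR adjusted p = 2.43e-07). DDIT4 (REDD1) had 16.4, 14.7 and 15.1 FPKM in the plasmid libraries, against 74.6, 81.4 and 94.9 FPKM in the control libraries (log2 fold change -2.36 ± 0.12, SE; edgeR adjusted p = 2.17e-06). Both were lower in each plasmid library. CASTOR2 (-1.95), of the arginine sensor family, fell too, and FLCN (1.12), FNIP1 (1.37) and RRAGC (0.90), which work together on the lysosome surface, rose. Of 36 listed lysosome genes, 35 were tested, of which 7 were higher and 19 lower. SQSTM1 (p62), a receptor of selective autophagy, had 262, 222 and 259 FPKM in the plasmid libraries, against 70.3, 69.7 and 77.2 FPKM in the control libraries (log2 fold change 1.85 ± 0.09, SE; edgeR adjusted p = 1.92e-06). TFE3, a transcription factor of lysosome genes, had 53.1, 49.6 and 53.5 FPKM in the plasmid libraries, against 16.7, 17.6 and 16.9 FPKM in the control libraries (log2 fold change 1.69 ± 0.07, SE; edgeR adjusted p = 7.63e-07). The factor rose with no overlap between groups. The enzymes CTSF (-1.56), CTSH (-1.34), GAA (-1.02) and GLB1 (-1.01) fell, as did the related factor TFEB (-0.69), and NEU1 (1.14) rose.

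**Figure D3:**
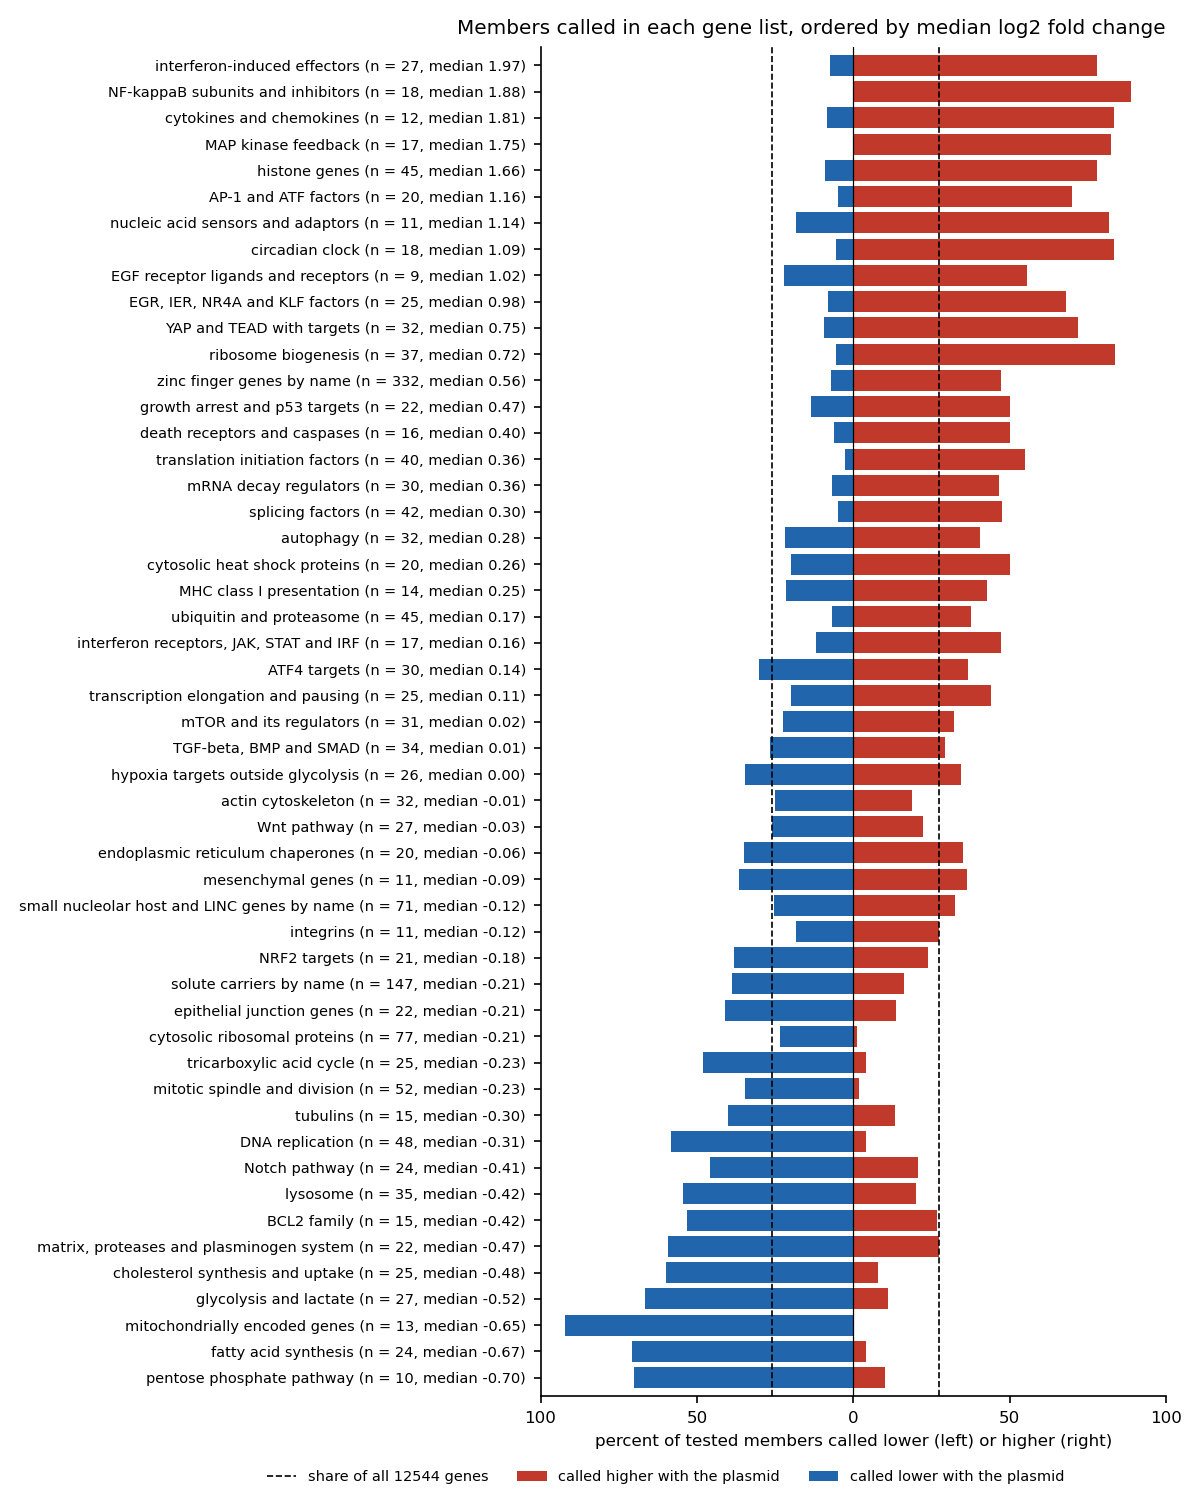
Percent of tested members called higher (right, red) or lower (left, blue) with the plasmid in 51 gene lists, ordered from top to bottom by median log2 fold change, which stands with the number of tested members beside each name. Dashed lines mark the shares over all 12544 genes, 27.4% higher and 26% lower. Interferon effectors, NF-kappaB, cytokines and MAP kinase feedback stand at the top and fatty acid synthesis and the pentose phosphate pathway at the bottom.

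Most genes for making ribosomes were higher, and few genes for ribosomal proteins were. Of 37 ribosome biogenesis genes, 31 were higher and 2 lower (13 and 1 without the hepatocyte-positive libraries), with a median log2 fold change of 0.72. RRP12, an export factor of preribosomes, had 29.4, 25.8 and 27.2 FPKM in the plasmid libraries, against 5.58, 5.89 and 5.92 FPKM in the control libraries (log2 fold change 2.32 ± 0.07, SE; edgeR adjusted p = 1.85e-07). WDR43, a component of the small-subunit processome, had 49.4, 53.2 and 50.6 FPKM in the plasmid libraries, against 19.1, 19.8 and 18.1 FPKM in the control libraries (log2 fold change 1.51 ± 0.08, SE; edgeR adjusted p = 2.22e-06). BRIX1, a factor of large-subunit assembly, had 23.3, 27.2 and 25.2 FPKM in the plasmid libraries, against 9.10, 10.3 and 10.4 FPKM in the control libraries (log2 fold change 1.43 ± 0.09, SE; edgeR adjusted p = 5.21e-06). The plasmid libraries lay above every control library in all 3. DDX21 (1.19), NOP58 (1.17), PES1 (0.94), UTP14A (1.19) and GNL2 (1.22) rose, UBTF (-0.79) and NHP2 (-0.52) fell, and the abundant FBL (log2 fold change -0.18, edgeR adjusted p = 0.205) and NPM1 (log2 fold change 0.06, edgeR adjusted p = 0.452) did not pass the test. Of 77 ribosomal protein genes, 1 was higher and 18 lower (0 and 1 without the hepatocyte-positive libraries, 1 and 7 on TPM), and none passed the test against 1.5-fold. By the main rule 1.3% of the ribosomal protein genes were higher and 23.4% lower, against 27.4% and 26% of all genes. On log2(FPKM + 1), limma called 31 of them lower.

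Of 40 translation initiation factor genes, 22 were higher and 1 lower (7 and 0 without the hepatocyte-positive libraries). EIF4A2, a helicase of the cap-binding complex, had 55.0, 61.5 and 55.6 FPKM in the plasmid libraries, against 24.7, 27.0 and 24.6 FPKM in the control libraries (log2 fold change 1.26 ± 0.10, SE; edgeR adjusted p = 1.79e-05). EIF2S1, the subunit of eIF2 that stress kinases phosphorylate, had 31.3, 31.4 and 33.8 FPKM in the plasmid libraries, against 17.1, 17.7 and 16.1 FPKM in the control libraries (log2 fold change 1.01 ± 0.07, SE; edgeR adjusted p = 8.17e-06). Both had no overlap between groups, and EIF4A1 (log2 fold change -0.06, edgeR adjusted p = 0.853) did not pass the test. Of 42 splicing factor genes, 20 were higher and 2 lower (7 and 0 without the hepatocyte-positive libraries). CLK1, a kinase of SR splicing proteins, had 16.8, 21.8 and 21.6 FPKM in the plasmid libraries, against 4.06, 5.20 and 4.73 FPKM in the control libraries (log2 fold change 2.18 ± 0.16, SE; edgeR adjusted p = 1.13e-05). The same direction was found for CLK4 (1.70), TRA2A (1.25), TRA2B (1.3005), SRSF3 (1.10) and SRSF7 (1.18). Among transcription elongation genes, ELL (2.20), ELL2 (1.42), BRD2 (0.98) and SUPT5H (0.78) rose and HEXIM1 (-0.41) and NELFB (-0.37) fell, and CDK9 (log2 fold change 0.07, edgeR adjusted p = 0.54) did not pass the test. HEXIM1 and NELFB were not called on TPM.

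Nearly all tested clustered histone genes were higher. Of 66 listed clustered histone genes, 31 were tested, of which 30 were higher and none was lower (18 and 0 without the hepatocyte-positive libraries), with log2 fold changes between 0.96 and 4.20. Their transcripts end in a stem-loop and mostly lack a poly(A) tail, and these libraries were made from poly(A)-selected RNA. H2BC8 had 18.2, 17.4 and 18.0 FPKM in the plasmid libraries, against 0.824, 1.20 and 1.18 FPKM in the control libraries (log2 fold change 4.14 ± 0.18, SE; edgeR adjusted p = 1.07e-06). H4C8 had 11.7, 12.5 and 11.5 FPKM in the plasmid libraries, against 0.864, 0.855 and 0.892 FPKM in the control libraries (log2 fold change 3.85 ± 0.13, SE; edgeR adjusted p = 2.8e-07). H1-2, a linker histone, had 171, 134 and 171 FPKM in the plasmid libraries, against 24.4, 22.2 and 30.2 FPKM in the control libraries (log2 fold change 2.71 ± 0.19, SE; edgeR adjusted p = 9.75e-06). The 3 genes were several times higher in each plasmid library than in any control. Many clustered genes have near-identical copies that may share reads. Of 12 variant histone genes, 3 were higher and 4 lower (0 and 3 without the hepatocyte-positive libraries). H3-3A had 18.8, 18.8 and 18.8 FPKM in the plasmid libraries, against 38.7, 43.6 and 45.3 FPKM in the control libraries (log2 fold change -1.10 ± 0.08, SE; edgeR adjusted p = 1.43e-05), and MACROH2A2 (-0.85), H2AZ2 (-0.73) and H2AX (-0.72) fell. Of 48 DNA replication genes, 2 were higher and 28 lower (0 and 8 without the hepatocyte-positive libraries, 4 and 13 on TPM), with E2F2 (-1.03), LIG1 (-0.96), RRM2 (-0.90), PCNA (-0.72) and MCM6 (-0.55) among those that fell. Of 52 genes of the mitotic spindle, where the NUSAP1 protein acts, 1 was higher and 18 lower (0 and 2 without the hepatocyte-positive libraries, 3 and 6 on TPM), and none passed the test against 1.5-fold. TPX2, a factor of spindle microtubule assembly, had 191, 198 and 207 FPKM in the plasmid libraries, against 193, 192 and 185 FPKM in the control libraries and was not called. CCNB1 (cyclin B1) had 60.9, 56.4 and 62.2 FPKM in the plasmid libraries, against 75.3, 78.8 and 85.6 FPKM in the control libraries, and fell by 0.34 on the log2 scale. CCNB1 was not called on TPM. Of 20 listed tubulin genes, 15 were tested, of which 2 were higher and 6 lower (1 and 3 without the hepatocyte-positive libraries). TUBB, the most abundant in control by FPKM, had 553, 477 and 526 FPKM in the plasmid libraries, against 837, 826 and 898 FPKM in the control libraries (log2 fold change -0.64 ± 0.08, SE; edgeR adjusted p = 0.000301). TUBB4A, a beta-tubulin known from brain, had 0.964, 0.780 and 1.04 FPKM in the plasmid libraries, against 6.67, 7.42 and 6.63 FPKM in the control libraries (log2 fold change -2.81 ± 0.13, SE; edgeR adjusted p = 1.42e-06). The plasmid libraries were below the controls for both.

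**Figure D4:**
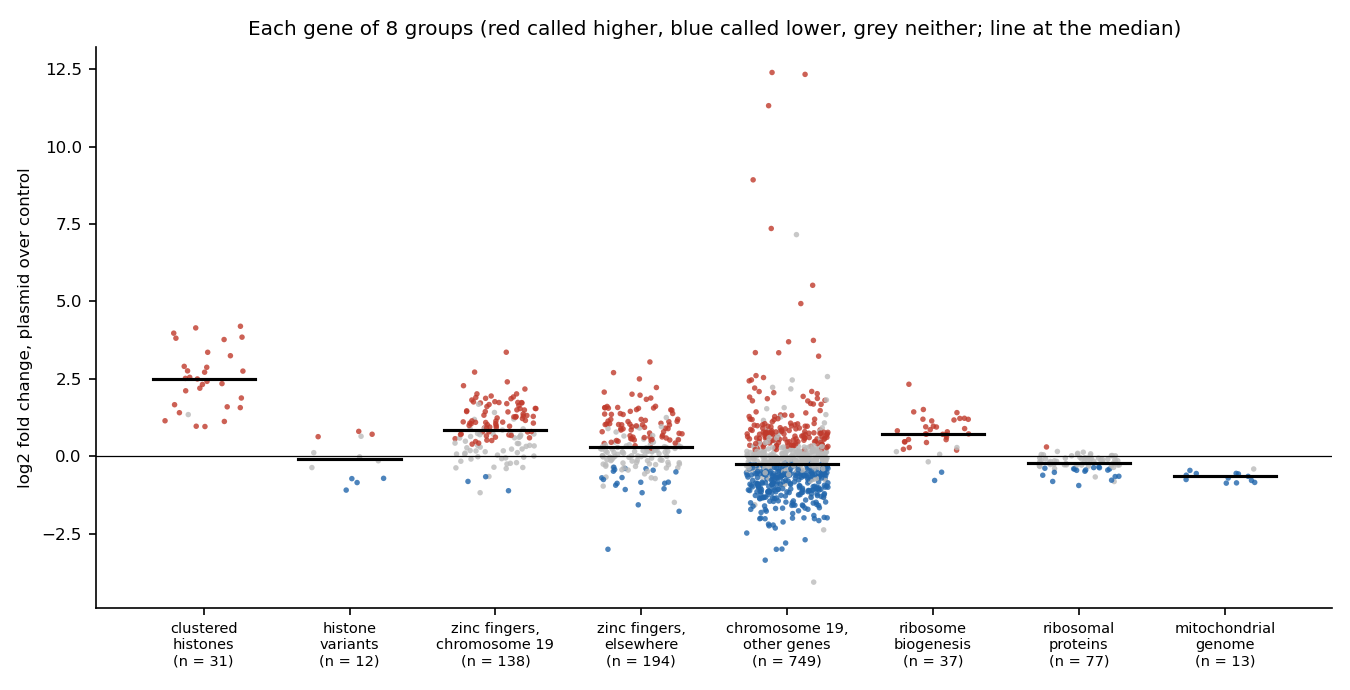
Log2 fold change, plasmid over control, of each tested gene of 8 groups, red where called higher, blue where called lower and grey otherwise, with a line at the median. Clustered histones (median 2.49) and zinc finger genes of chromosome 19 (median 0.86) lie mostly above 0, the other genes of chromosome 19 (median -0.24), the ribosomal proteins (-0.21) and the mitochondrial genome (-0.65) mostly below.

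Genes named ZNF or ZFP, most of which encode zinc finger transcription factors, were often higher. Of 579 listed genes, 332 were tested, of which 157 were higher and 24 lower (59 and 8 without the hepatocyte-positive libraries, 171 and 14 on TPM), that is 47.3% higher and 7.23% lower of the tested, against 27.4% and 26% of all genes. Many lie in clusters on chromosome 19, where 79 of 138 tested members were higher (57.2%) and 3 lower (2.17%). On the other chromosomes 78 of 194 were higher (40.2%) and 21 lower (10.8%). The 749 other tested genes of chromosome 19 had 157 higher (21.0%) and 292 lower (39.0%). ZNF143, an activator of many housekeeping promoters, had 18.5, 20.2 and 16.7 FPKM in the plasmid libraries, against 3.24, 3.73 and 3.42 FPKM in the control libraries (log2 fold change 2.496 ± 0.11, SE; edgeR adjusted p = 1.12e-06). ZNF460, on chromosome 19, had 3.52, 3.94 and 3.74 FPKM in the plasmid libraries, against 0.390, 0.367 and 0.388 FPKM in the control libraries (log2 fold change 3.36 ± 0.19, SE; edgeR adjusted p = 3.81e-06). Both were apart from control. Zinc finger paralogs are similar in sequence and may share reads. Of 338 listed solute carriers, 147 were tested, of which 24 were higher and 57 lower (6 and 26 without the hepatocyte-positive libraries).

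Targets of YAP and TEAD, factors that answer to cell shape and contact, were mostly higher. Of 33 listed genes, 32 were tested, of which 23 were higher and 3 lower (14 and 2 without the hepatocyte-positive libraries). CCN1, a matricellular protein, had 146, 138 and 169 FPKM in the plasmid libraries, against 37.4, 37.8 and 39.8 FPKM in the control libraries (log2 fold change 2.05 ± 0.13, SE; edgeR adjusted p = 7.01e-06). NT5E (CD73, an ectoenzyme that makes adenosine) had 37.9, 39.5 and 40.4 FPKM in the plasmid libraries, against 14.5, 15.2 and 14.1 FPKM in the control libraries (log2 fold change 1.51 ± 0.07, SE; edgeR adjusted p = 1.79e-06). Both were higher in every plasmid library. The target ANKRD1 (6.88), the inhibitory kinases LATS1 (1.29) and LATS2 (1.23) and CCN2 (1.97), AJUBA (1.37) and NUAK2 (2.07) rose, TEAD2 (-1.06) and TEAD3 (-0.92) fell, and YAP1 (log2 fold change 0.33, edgeR adjusted p = 0.116) and WWTR1 (log2 fold change -0.11, edgeR adjusted p = 0.222) did not pass the test. Of 43 listed genes of the matrix, its proteases and the plasminogen system, 22 were tested, of which 6 were higher and 13 lower (3 and 7 without the hepatocyte-positive libraries). PLAU (urokinase, an activator of plasminogen) had 158, 144 and 153 FPKM in the plasmid libraries, against 42.3, 42.0 and 44.8 FPKM in the control libraries (log2 fold change 1.899 ± 0.09, SE; edgeR adjusted p = 1.35e-06). COL6A1, a collagen VI chain, had 3.48, 3.23 and 3.52 FPKM in the plasmid libraries, against 11.01, 11.4 and 11.9 FPKM in the control libraries (log2 fold change -1.66 ± 0.07, SE; edgeR adjusted p = 7.82e-07). The groups were apart in both. The urokinase receptor gene PLAUR (1.33) and MMP1 (3.80) rose, and TIMP2 (-1.33), MMP14 (-1.09), MMP2 (-0.77) and COL1A1 (-0.97) fell. COL1A1 and COL3A1, the 2 tested of 12 fibroblast and endothelial markers, were both lower, and the 12 summed to 10.2 to 10.9 FPKM with the plasmid and 21.2 to 22.8 FPKM in control.

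Of 33 listed epithelial junction genes, 22 were tested, of which 3 were higher and 9 lower (1 and 6 without the hepatocyte-positive libraries, 5 and 5 on TPM). CDH1 (E-cadherin), low in these cells, had 0.308, 0.314 and 0.266 FPKM in the plasmid libraries, against 1.86, 1.77 and 1.91 FPKM in the control libraries (log2 fold change -2.54 ± 0.18, SE; edgeR adjusted p = 8.7e-06). JUP (plakoglobin) had 15.4, 9.71 and 10.9 FPKM in the plasmid libraries, against 41.7, 49.1 and 38.2 FPKM in the control libraries (log2 fold change -1.76 ± 0.21, SE; edgeR adjusted p = 0.00016). CLDN1, a tight junction claudin, had 8.96, 9.41 and 8.57 FPKM in the plasmid libraries, against 1.94, 2.17 and 1.94 FPKM in the control libraries (log2 fold change 2.23 ± 0.12, SE; edgeR adjusted p = 2.6e-06). The first pair was lower and CLDN1 higher in every plasmid library. CGN (-1.49), CLDN7 (-1.12) and CDH3 (-1.37) fell. Of 31 listed genes of the Notch pathway, 24 were tested, of which 5 were higher and 11 lower (1 and 3 without the hepatocyte-positive libraries). NOTCH3, a receptor, had 0.362, 0.349 and 0.322 FPKM in the plasmid libraries, against 2.10, 2.21 and 1.83 FPKM in the control libraries (log2 fold change -2.49 ± 0.12, SE; edgeR adjusted p = 1.86e-06). JAG1, a ligand, had 8.58, 8.66 and 8.79 FPKM in the plasmid libraries, against 3.90, 4.56 and 4.05 FPKM in the control libraries (log2 fold change 1.14 ± 0.07, SE; edgeR adjusted p = 4.75e-06). The receptor was low and the ligand high with the plasmid. LFNG (-2.45), JAG2 (-1.18) and NRARP (-1.07) fell and HES1 (0.77) rose.

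Most clock genes were higher. Of 22 listed genes, 18 were tested, of which 15 were higher and 1 lower (10 and 0 without the hepatocyte-positive libraries), with a median log2 fold change of 1.09. NR1D1 (REV-ERB alpha, a repressor in the core loop) had 58.7, 51.4 and 52.7 FPKM in the plasmid libraries, against 3.29, 3.49 and 3.37 FPKM in the control libraries (log2 fold change 4.08 ± 0.09, SE; edgeR adjusted p = 4.65e-08). PER1 had 13.8, 14.5 and 13.3 FPKM in the plasmid libraries, against 1.93, 1.95 and 1.72 FPKM in the control libraries (log2 fold change 2.97 ± 0.10, SE; edgeR adjusted p = 2.7e-07). PER2 had 5.94, 7.46 and 6.17 FPKM in the plasmid libraries, against 1.24, 1.03 and 1.22 FPKM in the control libraries (log2 fold change 2.56 ± 0.13, SE; edgeR adjusted p = 2.58e-06). THRA, a thyroid hormone receptor gene whose locus overlaps NR1D1 on the other strand, had 0.846, 0.418 and 1.21 FPKM in the plasmid libraries, against 5.60, 6.12 and 3.63 FPKM in the control libraries (log2 fold change -2.56 ± 0.35, SE; edgeR adjusted p = 0.000389). The repressors of the loop were several times higher in each plasmid library. NR1D2 (2.31), CIART (2.17), CRY1 (1.15) and BHLHE40 (1.77) rose, the activator CLOCK (log2 fold change 0.60, edgeR adjusted p = 0.159) did not pass the test, and DBP, an output gene of the loop, had 0.667, 0.615 and 0.694 FPKM in the plasmid libraries, against 1.19, 1.32 and 1.44 FPKM in the control libraries (log2 fold change -0.91 ± 0.14, SE; edgeR adjusted p = 0.000752).

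Shares of calls are given by properties of the genes, as descriptions over genes that share libraries. Of 294 genes with a mean above 100 FPKM over the 9 libraries, 14.3% were higher and 36.7% lower, against 30.9% higher and 26.8% lower at 10 to 30 FPKM. Of protein-coding genes spanning under 5 kb, 19.5% were higher and 36.2% lower, against 32.9% higher and 23.3% lower at 50 to 100 kb. Of genes with no TATTTAT in the 3′ UTR, 26.2% were higher and 30.9% lower, and of the 547 genes with 3 or more copies, 35.3% were higher and 13.7% lower.

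Shares of promoters with a motif are descriptions too. An ISRE match was found in 18.8% of the 64 promoters of genes called higher and above 8-fold, in 5.12% of those of genes higher by more than 1.5-fold, in 1.51% of those lower by more than 1.5-fold and in 2.58% of all. The AP-1 site TGANTCA was found in 7.63% of the higher and 2.13% of the lower promoters, against 3.93% of all. The cAMP response element TGACGTCA was found in 5.70% of the higher and 2.01% of the lower promoters, against 3.54% of all. TATAAA, a form of the TATA box, was found in 20.3% of the promoters above 8-fold and in 1.56% of all. The sterol element TCACNCCAC, one form of the SREBP site, was found in 1.06% of the higher and 0.878% of the lower promoters, against 1.05% of all. Searches covered both strands, except for TATAAA, which was searched on the gene's strand only and in a narrower part of the window. A match to one motif may overlap a match to another. Read from the motif, 95 of the 231 genes with an ISRE were higher (41.1%) and 44 lower, so most genes with the match were not called higher.

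**Figure D5:**
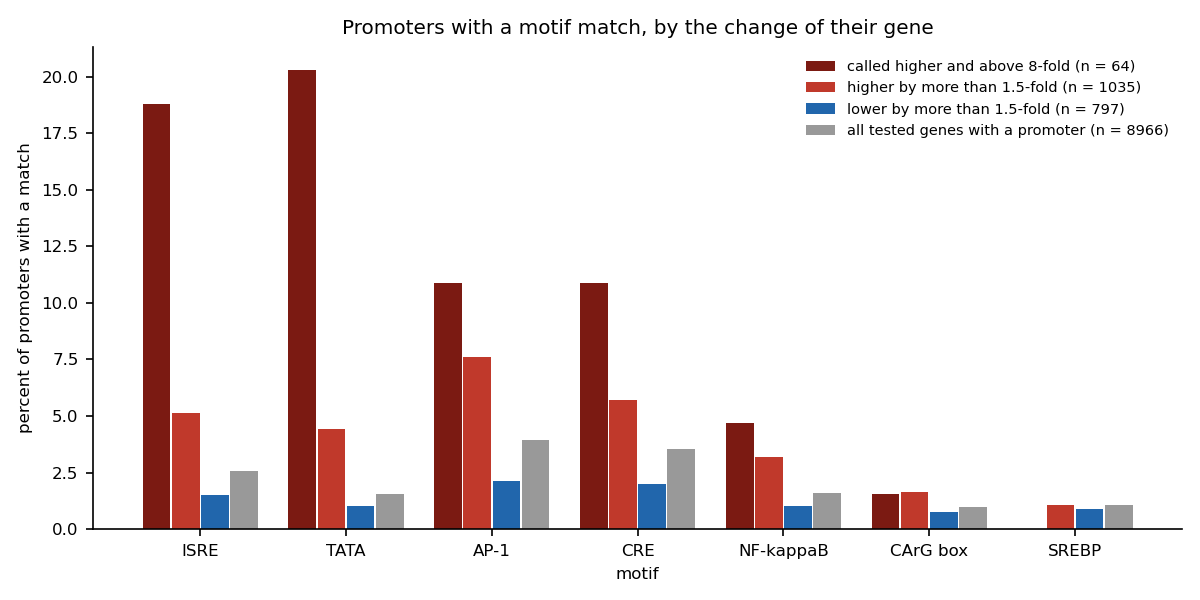
Percent of promoters (250 bases before to 50 bases after the gene start) with at least 1 match to each of 7 motifs, for genes called higher and above 8-fold (n = 64), higher by more than 1.5-fold (n = 1035), lower by more than 1.5-fold (n = 797) and all tested genes with a promoter (n = 8966). TATA was searched on the gene's strand only and in a narrower part of this window. ISRE and TATA matches reach 18.8% and 20.3% of the promoters of genes above 8-fold, and the SREBP match has a like share in the higher, lower and full classes.

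Set against the siRNA libraries, which share the plasmid libraries with the comparison above and so are no independent support, 3192 genes (25.4%) were higher with the plasmid and 3077 genes (24.5%) lower. NR1D1 had 58.7, 51.4 and 52.7 FPKM in the plasmid libraries and 6.28, 5.80 and 5.25 FPKM in the siRNA libraries (log2 difference 3.33 ± 0.09, SE; edgeR adjusted p = 1.22e-07). IFIH1 had 7.01, 7.54 and 7.83 FPKM in the plasmid libraries and 0.563, 0.533 and 0.603 FPKM in the siRNA libraries (log2 difference 3.80 ± 0.13, SE; edgeR adjusted p = 3.75e-07). H4C8 had 11.7, 12.5 and 11.5 FPKM in the plasmid libraries and 1.16, 1.25 and 1.39 FPKM in the siRNA libraries (log2 difference 3.31 ± 0.13, SE; edgeR adjusted p = 7.04e-07). In all 3 the plasmid libraries lay above every siRNA library. These cells received siRNA and not plasmid DNA, so they are no control for the transfection of a plasmid. Over siRNA, interferon-induced effectors had 22 higher and 0 lower, MAP kinase feedback genes 14 higher and 0 lower, clock genes 15 higher and 1 lower, ribosome biogenesis genes 29 higher and 2 lower, clustered histones 29 higher and 0 lower and fatty acid genes 1 higher and 14 lower. The 13 mitochondrial transcripts had 0 higher and 1 lower against siRNA. LDHA, which the series title links to NUSAP1, had 77.2, 71.7 and 80.9 FPKM in the plasmid libraries, 59.8, 58.5 and 69.9 FPKM in the siRNA libraries and 139, 148 and 155 FPKM in the control libraries. Its level with the plasmid was above siRNA (log2 difference 0.38 ± 0.10, SE; edgeR adjusted p = 0.0123) and below control (log2 fold change -0.86 ± 0.10, SE; edgeR adjusted p = 0.000145).

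The 3 plasmid libraries were close to one another for most genes. Among 6364 genes with a mean of at least 5 FPKM with the plasmid, 244 differed by more than 2-fold between their highest and lowest plasmid library, against 256 among control libraries. In a few genes the plasmid libraries were far apart. AHNAK, a giant scaffold protein, had 25.01, 46.6 and 1.13 FPKM in the plasmid libraries, against 36.5, 35.9 and 20.8 FPKM in the control libraries. FJX1, a YAP target, had 0.604, 21.5 and 23.6 FPKM in the plasmid libraries, against 11.5, 10.2 and 12.9 FPKM in the control libraries. DAG1 (dystroglycan) had 8.32, 2.22 and 17.3 FPKM in the plasmid libraries, against 44.2, 44.99 and 43.0 FPKM in the control libraries. Plasmid 3 for AHNAK and plasmid 1 for FJX1 stood apart from the other plasmid libraries, as did plasmid 1 for IER2 and B2M above, while DAG1 was below control in all 3.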

How the data were processed

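Poly(A)-selected RNA of PANC1 cells was sequenced with a dUTP protocol, per the labels. The authors deposited 1 table with a whole-number read count and an FPKM value per gene and library. The authors' FPKM divides by transcript length and library size, and the table writes an FPKM of 0 as 0.0001. Tools named in the submitters' processing notes are StringTie 1.3.4d, HISAT2 2.0.4 and cutadapt 1.9. Genome build, settings and use of strand were not given in the sources used here.

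Counts were analysed with edgeR 4.0.16 (R 4.3.3). TMM factors and a quasi-likelihood fit of all 9 libraries in 3 groups (6 residual degrees of freedom, common biological coefficient of variation 0.226) were used on 12545 genes that reached an FPKM of 1 in 3 or more of the 9 libraries. Calls used a Benjamini-Hochberg adjusted p below 0.05, and glmTreat served as the test against 1.5-fold. Standard errors of log2 fold changes are approximate. The code was tested on simulated data. Alternatives were DESeq2 1.42.0, limma 3.58.1 on FPKM and TPM, other filters and scalings, a replicate block and leaving out libraries. Lower bounds use a floor of 3 counts over a group and, like the counts, cover counting error only. Identifiers were matched to GENCODE 29 (58394 of 60612) for gene span, type and 3′ UTR, and symbols to RefSeq promoters. The 52 gene lists and 5 marker lists, and the members of all comparisons, were chosen with earlier results of these data known.

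Genes were named by a rule: the 16 largest increases and 16 largest decreases without overlap between groups and with a mean of at least 5 FPKM in the higher group, the 8 most abundant genes of the controls, genes with no count in any control, and the members of each list with the smallest and largest adjusted p. Not all are printed, and some genes are not reported here. Further genes, the split of histones and the split of zinc finger genes by chromosome were chosen after their values were seen.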

Additional observations from a re-analysis of the deposited data

How the results depend on the processing

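Of 280 called genes named in the report, 214 kept direction and call in every alternative that tested them, none reversed, and 3 (HSPA1A, HSPB1 and HSPE1) lost the call when 1 library was left out. The 6701 calls (3437 higher, 3264 lower) became 7158 with DESeq2, 7123 without a filter, 6193 with limma on TPM, 6810 with limma on log2(FPKM + 1), 6702 without the NUSAP1 row and 5850 to 6295 without any 1 library. With FPKM of at least 5 there were 4228 calls among 7114 genes, 1435 of them beyond 1.5-fold by glmTreat in place of 2517, and 4068 calls against siRNA in place of 6269, where fewer genes were tested. Without the 4 libraries with hepatocyte transcripts there were 2418 calls, 700 beyond 1.5-fold and 3538 against siRNA, where each of the plasmid and control groups had 1 library and was assumed to vary like the siRNA group. The ranges without 1 library were 2193 to 2467 beyond 1.5-fold and 5353 to 6003 against siRNA. The median log2 fold change of all genes was 0.14 on TPM and -0.07 on log2(FPKM + 1). No label says that replicate numbers pair the libraries. Deviations from the group mean correlated at -0.093, 0.00 and 0.002 between same-numbered plasmid and control libraries. With 3 libraries per group, these values cannot decide whether libraries were paired. A replicate block gave 7067 calls, 2653 beyond 1.5-fold and 6642 against siRNA. The median of the Notch list changed sign with FPKM of at least 5, and those of the mTOR, endoplasmic reticulum chaperone and histone variant lists changed sign under at least 1 alternative.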

Other observations

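Of 7 genes outside the lists that had no count in any control library, those with the largest bounds were KRTAP2-3, a keratin-associated protein gene, with 377, 316 and 418 counts in the plasmid libraries (at least 393.1-fold higher), and the pseudogene SDHAP2, with 271, 341 and 816 counts (at least 505.3-fold higher). All 7 had an FPKM of at least 1 in every plasmid library. The others were AC008982, CHMP4BP1, IFNA22P, AC113410 and AC104695, at least 330.1-fold, 90.2-fold, 61.2-fold, 36.4-fold and 30.8-fold higher in that order. SDHAP2 is a close copy of SDHA.

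Turnover genes were described by 2 further lists. The ubiquitin and proteasome list had 37.8% higher and 6.67% lower, and the tested autophagy genes 40.6% and 21.9%. All genes had 27.4% and 26%. Of 45 ubiquitin and proteasome genes, 17 were higher and 3 lower (3 and 1 without the hepatocyte-positive libraries). Of 35 listed autophagy genes, 32 were tested, of which 13 were higher and 7 lower (5 and 3 without the hepatocyte-positive libraries), with ULK1 (1.24), ATG12 (1.13) and ATG101 (0.90) higher and WIPI1 (-0.95) and WIPI2 (-0.84) lower on the log2 scale.

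By gene type, 28.4% of protein-coding genes were higher and 27.8% lower and 24.5% of long noncoding genes were higher and 20.5% lower, all by edgeR at an adjusted p below 0.05.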
